A study of Drosophila melanogaster with 3 samples.

Results

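The X chromosome summits are the peak summits of E(z)-GFP that lay on the X chromosome of Drosophila melanogaster. They were taken from the dm6 list of peaks that passed the authors' threshold on the irreproducible discovery rate, called the optimal list here, as every peak whose chromosome is X. A summit is the peak's start plus the deposited summit offset. The optimal list held 5623 summits and 1032 of them were on X, beside 1013 on 2L, 1244 on 3L and 1342 on 3R, the autosomal arms they were compared with. The protein was mapped by chromatin immunoprecipitation followed by sequencing in whole prepupae of 1 transgenic line that stably expresses E(z) with GFP at its C terminus, precipitated with an antibody against GFP according to the sample description. The antibody field of the labels reads E(z) instead, so whether the peaks are of the tagged protein alone cannot be told from the labels. The 3 biological replicates form 1 group of males and females pooled together, of unknown age within the prepupal stage. The promoter that drives the transgene is not given in the labels, and the control experiment they name was not analysed here. Because the sexes were pooled, values on X come from a mixture of cells with 1 and with 2 X chromosomes, and the sexes cannot be told apart.

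E(z) is the catalytic subunit of Polycomb repressive complex 2, which methylates lysine 27 of histone H3 and keeps developmental genes silent outside their domains. In flies the complex is recruited by DNA elements that bind several sequence-specific proteins, among them GAGA factor, which recognises GAGAG, and Pho, whose sites contain GCCAT. The X chromosome carries a further chromatin system, dosage compensation, in which the MSL complex with the roX RNAs raises transcription of X genes in males. That complex enters the chromosome at elements rich in GA repeats.

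The sequences of 5 X summits are printed here because they show different arrangements of the words described below. They are given on the plus strand of genome release 6, from RefSeq, with GAGAG on either strand in capitals. In all but CG3726 and Gapdh2 capitals also mark GCCAT and CACACACA on either strand. The first is the strongest summit of the list, shown from the base next to the Ugalt start outwards, and this stretch held none of these words. The CG3726 and Gapdh2 sequences, 299 bases each, have a summit at the central base within a stretch rich in A and T, with GAGAG only beyond it. The nearest GAGAG was 85 bp from the summit in CG3726 and 101 bp in Gapdh2. The bi and oc sequences, 151 bases each, are summits whose nearest TSS belongs to a developmental gene, 154 bp from a start of bi and 18207 bp from oc, and that held the words close to the summit.
Ugalt summit, chrX:2703853-2703945: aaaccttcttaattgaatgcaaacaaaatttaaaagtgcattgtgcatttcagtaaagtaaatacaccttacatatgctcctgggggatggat
CG3726 summit, chrX:5918764-5919062: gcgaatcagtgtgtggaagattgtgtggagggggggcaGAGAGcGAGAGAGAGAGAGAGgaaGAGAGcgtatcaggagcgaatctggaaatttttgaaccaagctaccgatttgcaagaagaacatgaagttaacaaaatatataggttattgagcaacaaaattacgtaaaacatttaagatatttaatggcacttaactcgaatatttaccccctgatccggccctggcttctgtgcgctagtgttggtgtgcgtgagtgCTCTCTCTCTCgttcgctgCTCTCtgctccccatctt
Gapdh2 summit, chrX:15867838-15868136: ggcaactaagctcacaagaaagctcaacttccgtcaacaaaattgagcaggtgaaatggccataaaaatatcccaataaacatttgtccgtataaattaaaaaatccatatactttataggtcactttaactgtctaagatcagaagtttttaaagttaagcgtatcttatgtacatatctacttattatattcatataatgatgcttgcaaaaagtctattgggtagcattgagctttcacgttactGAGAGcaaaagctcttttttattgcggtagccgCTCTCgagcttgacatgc
bi summit, chrX:4426906-4427056: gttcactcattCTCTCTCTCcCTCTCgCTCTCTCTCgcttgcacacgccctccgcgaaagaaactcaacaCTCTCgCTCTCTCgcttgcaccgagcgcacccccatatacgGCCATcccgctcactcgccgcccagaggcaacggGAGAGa
oc summit, chrX:8624894-8625044: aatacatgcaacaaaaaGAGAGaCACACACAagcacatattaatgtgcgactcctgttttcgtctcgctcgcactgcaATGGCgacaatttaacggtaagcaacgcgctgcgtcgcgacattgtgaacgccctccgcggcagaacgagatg

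The signal value that the authors gave each peak has no stated scaling and served only to rank peaks within a list. Depth is unknown from these lists. The relaxed list of a replicate held 30000 peaks, and the 5623 highest-signal peaks of it, as many as in the optimal list, are called its strong peaks. Replicate 3 stood somewhat apart. For X summits listed in both, Spearman's rho of their ranks was 0.790 between replicates 1 and 2 over 990 summits, 0.605 between 1 and 3 over 981 and 0.652 between 2 and 3 over 1002. On 2L, 3L and 3R these values lay at 0.744 to 0.768, 0.517 to 0.549 and 0.609 to 0.638. The points are peaks of the same libraries and not independent. Differences between X and the mean of 2L, 3L and 3R were computed in each replicate's strong peaks and tested with a two-sided exact sign-flip permutation test over the 3 replicates. The smallest p that test can give is 0.25, so no difference here could pass 0.05. Of 45 differences tested, 34 reached that p by the exact test, with adjusted p-values from 0.331 upwards. Intervals on single shares are exact 95% binomial intervals and cover only the counting error of the peaks or genes.

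X carried about as many summits as its whole length would give, at every level of signal in the optimal list. The 1032 X summits made up 18.4% of the optimal list (17.3% to 19.4%), and X is 17.6% of the length of the 6 arms that were counted. The density was 43.8 summits per Mb on X, against 43.1 on 2L, 44.3 on 3L and 41.8 on 3R. These densities, and the ratios per Mb below, use whole arm lengths, and the arms differ in their ends without summits. The first and last summits lay at 173677 and 23071473 on X and at 129174 and 22024690 on 2L. On 3L they lay at 73978 and 26012621, and on 3R at 4214258 and 31991930. Counted only between the first and the last summit, X was the least dense of these arms. X held 17.5%, 19.4% and 17.5% of the strong peaks of replicates 1, 2 and 3 (mean 18.1% ± 1.07, SD, n = 3). Replicate 2 was thus the one with the most X peaks. The median signal percentile of X summits was 50.9, against 49.4, 49.9 and 49.97 on 2L, 3L and 3R. In the replicates this percentile differed from the mean of the 3 arms by 0.685, 2.11 and -1.12 percentile points, so its sign was not the same in all 3 (exact sign-flip permutation test, p = 0.75, n = 3). X had 18 of the 100 strongest optimal peaks and 92 of the 500 strongest, beside 20, 21 and 21 and then 95, 107 and 120 on 2L, 3L and 3R.

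**Figure D1:**
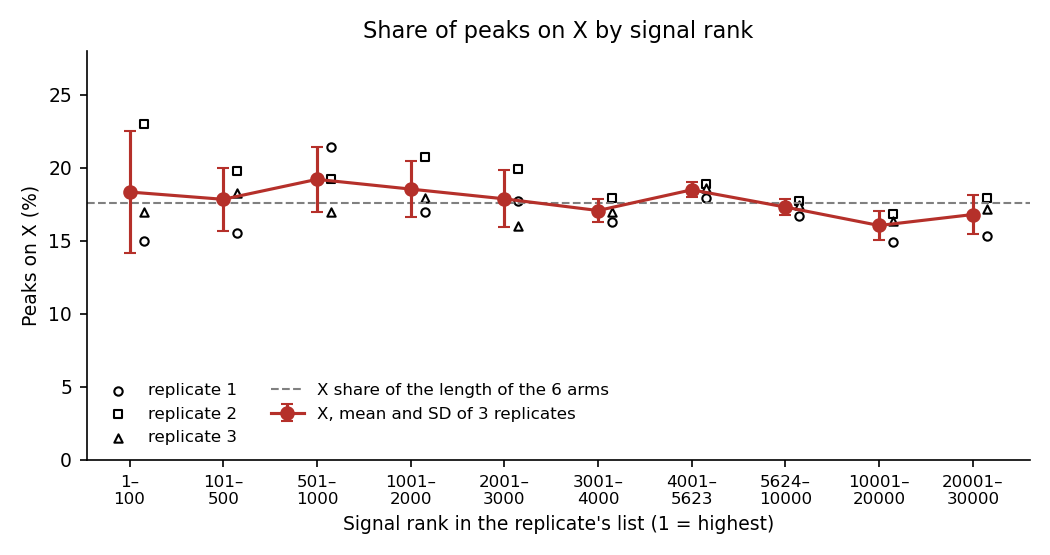
Percentage of peaks on X (vertical axis) by signal rank in each replicate's relaxed list (horizontal axis, 1 is the highest signal). The line and bars are the mean and SD of 3 replicates, open symbols are the replicates, and the dashed line is the X share of the length of the 6 arms. The mean stays between 16.04% and 19.2% in all 10 classes of rank.

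By signal rank, as plotted, X held 18.3% ± 4.16 of the 100 strongest peaks of a replicate and 18.5% ± 0.504 of the peaks at ranks 4001 to 5623 (SD, n = 3). Below the strong peaks the share was lower, at 16.04% ± 1.01 for ranks 10001 to 20000 and 16.8% ± 1.34 for ranks 20001 to 30000. There the number of peaks per Mb on X was 0.861 and 0.908 times that on 2L, 3L and 3R together, against 1.09 times among the 100 strongest. The SD of this last ratio was 0.315, which is wider than its distance from 1.

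Along the chromosome the summits were patchy, and fewer per Mb in the stretches nearer the centromere-proximal end, where X runs into heterochromatin. The first 7 Mb held 374 summits, or 53.4 per Mb (53.0 ± 3.98 in the replicates, SD, n = 3). The stretch from megabase 8 to 14 held 364, or 52.0 per Mb (51.8 ± 2.42). The stretch from megabase 15 to 21 held 267, or 38.1 per Mb (36.8 ± 3.21), although it has 107 protein-coding genes per Mb against 93.6 in the first 7 Mb. Megabases 22 to 24 held 27 summits, or 10.6 per Mb (11.7 ± 2.17), with 44.8 genes per Mb. These stretches were drawn after the values were seen. In each replicate both proximal stretches had fewer peaks per Mb than both distal ones. Single megabases varied within these stretches, with 31 and 30 summits in megabases 1 and 2, 29 in megabase 12 and 68 in megabase 18. The share found among the strong peaks of all 3 replicates was 61.5%, 58.0% and 49.4% in the first 3 stretches and 66.7% of the 27 summits in the last. In the optimal list megabase 4 was the richest with 78 summits, and it had 65, 69 and 67 strong peaks in replicates 1, 2 and 3. Megabases 7 and 8 had more in every replicate, with 72, 80 and 75 and with 70, 81 and 68. The longest stretch of X without a summit ran for 847855 bp, from 21631670 to 22479525. The median distance from an X summit to the next nearest was 2368 bp, against 2415, 2249 and 2560 bp on 2L, 3L and 3R.

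X summits lay in introns more often, and between genes less often, than those of the 3 autosomal arms. An intron away from any transcription start site (TSS) of a protein-coding gene held 460 X summits, 44.6% (41.5% to 47.7%), against 34.2%, 32.2% and 37.9% on 2L, 3L and 3R. In the strong peaks of replicates 1, 2 and 3 the X intron share was 46.4%, 42.8% and 36.7%. It was higher than the mean of the arms by 11.4, 9.19 and 7.47 percentage points (mean 9.34 ± 1.95, SD, n = 3, exact sign-flip permutation test, p = 0.25). The 3 replicates thus differed in level and all had the higher intron share on X. Intergenic summits numbered 132 on X, 12.8% (10.8% to 14.98%), against 23.6%, 30.1% and 20.6%. The X intergenic share was 13.4%, 13.0% and 11.7% in the replicates, differing from the mean of the arms by -12.6, -12.1 and -9.13 points (mean -11.3 ± 1.88, SD, n = 3, exact sign-flip permutation test, p = 0.25). Within each replicate X lay outside the range of the 3 arms for both places, although the X intron share of replicate 3 was below the 38.6% and 37.2% of 3R in replicates 1 and 2. These classes of place were singled out after their values were seen.

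The X chromosome has longer genes, with a median of 2521 bp against 1986, 2130 and 2124 bp, and 9.02% of its genes exceed 20 kb against 6.93%, 6.94% and 7.19%. Between the first and the last summit, introns away from a TSS made up 38.7% of the X bases, against 34.7%, 36.4% and 36.2% of 2L, 3L and 3R. Intergenic bases made up 23.5% of X, against 27.1%, 28.5% and 23.7%. The share of summits divided by the share of bases was 1.15 for X introns, against 0.984, 0.883 and 1.04. For X intergenic sequence it was 0.544, against 0.869, 1.06 and 0.869. Taking off the share of bases left a difference between X and the mean of the arms of 6.92 points for introns and -9.04 points for intergenic sequence.

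Close to a TSS X had a lower share of its summits, and just outside it a higher one. Within 1 kb lay 424 X summits, 41.1%, against 40.9%, 37.0% and 40.9% on 2L, 3L and 3R, and the replicate differences were 0.455, 1.39 and 0.902 points (mean 0.916 ± 0.468, SD, n = 3). Within 250 bp, however, X had 211 summits, 20.4%, against 24.2%, 22.3% and 24.7%, with differences of -4.02, -3.16 and -3.78 points in the 3 replicates. From there to 1000 bp X had 213, 20.6%, against 16.7%, 14.6% and 16.2%. A further 14 X summits lay in untranslated or noncoding exons and 2 in coding exons. The promoter share on X depended on the distance, at -3.31 points against the arms within 250 bp and 5.74 points within 5 kb. It also turned to -0.429 points among the 2811 strongest optimal peaks and to -0.894 points with the TSSs of all annotated genes.

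**Figure D2:**
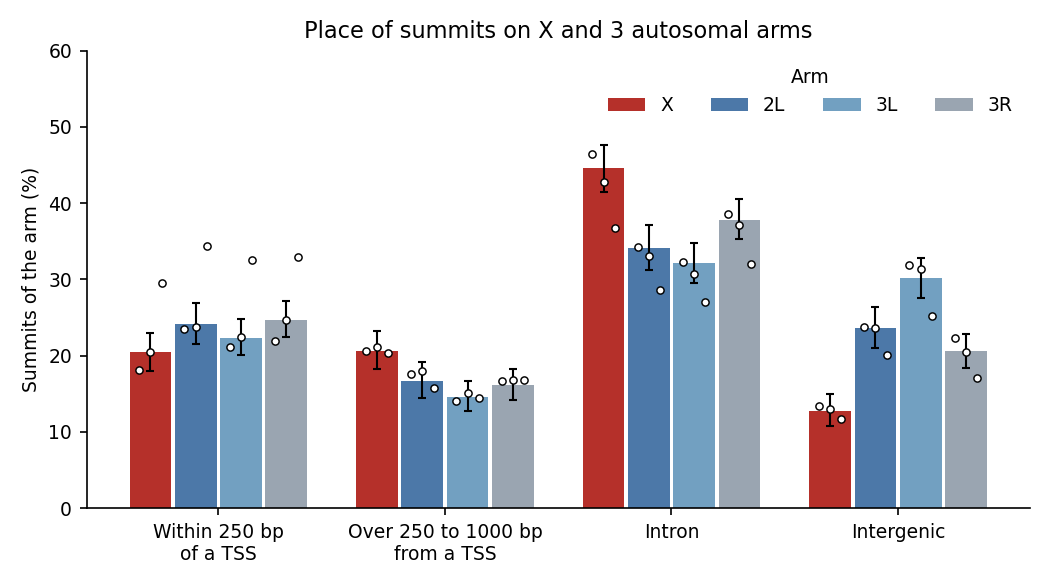
Percentage of the summits of an arm (vertical axis) in 4 classes of place, for X and then 2L, 3L and 3R. Bars are the optimal list with exact 95% binomial intervals, and open circles are the strong peaks of replicates 1, 2 and 3 from left to right. X stands highest for introns at 44.6% and lowest for intergenic sequence at 12.8%.

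Some X genes held many summits in their bodies. Of the 2196 protein-coding genes of X, 330 (15.03%) held at least 1 summit in their body, against 11.0%, 11.6% and 10.7% on 2L, 3L and 3R, and 15 held at least 8, against 8, 10 and 17. The bodies with at least 8, a minimum chosen after the values were seen, belonged to kirre, CG1677, CG43658, Tlk, CG12535, Mnt, Raf, CG32816, CHES-1-like, RhoGAP19D, bi, mew, spri, CG32719 and Hr4. The gene kirre, which encodes an adhesion receptor of myoblasts and spans 394 kb, held 22 summits, with 23, 23 and 19 strong peaks in replicates 1, 2 and 3. Mnt, whose product is the repressor in the Myc network, held 13 in 29.9 kb, the highest density of the 15 at 4.35 per 10 kb, with 10, 10 and 8 strong peaks. Raf, the kinase between Ras and MEK, held 13, with 14, 12 and 12. Replicate 3 had fewer in some bodies, with 6 at CG32816 and 4 at RhoGAP19D, where replicates 1 and 2 had 12 and 11 and then 8 and 8. A body can contain other genes, so its summits need not be of that gene alone. The body of CG32816 contains the genes ac, sc, l(1)sc and ase, and that of kirre contains w.

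Mnt and Tlk also made up most of the densest 100 kb of X, which ran from 3667416 to 3761811 and held 24 summits. The replicates had 17, 17 and 16 strong peaks there. The densest windows of 2L, 3L and 3R held 25, 40 and 26. Genes with a TSS in the X window were Ilp7, an insulin-like peptide gene, Parg, which encodes poly(ADP-ribose) glycohydrolase, Mnt, Rala, a small GTPase gene, and Tlk, the Tousled-like kinase gene. The strongest of the 24 was in an intron of Tlk, at optimal rank 64 and at ranks 67, 51 and 101 in replicates 1, 2 and 3. The strongest at Mnt was intronic too, at rank 373, with 337, 374 and 682. At Ilp7 the summit lay 205 bp upstream of the TSS with ranks of 5844, 3384 and 7001, so it was a strong peak only in replicate 2. The X summits farthest from any TSS lay in an intron of the zinc finger gene mamo, one 43451 bp from the AMPdeam start and another 42225 bp from that of mamo. The next 3 lay between genes, at 39718 and 39019 bp from CG6414 and at 37238 bp from the homeobox gene B-H2.

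The 25 strongest X summits found in all 3 replicates lay near genes of varied function. Fewer of them were close to a TSS than among the 25 strongest of each arm. The first, 18 bp upstream of Ugalt, the gene of a UDP-galactose transporter, ranked 1 in each replicate. The second lay in an intron of CG32772, at rank 7, with ranks of 18, 5 and 6 in replicates 1, 2 and 3. A pair of intergenic summits 6053 and 4995 bp downstream of the CG4004 start ranked 28 and 29, and an intron of CG3726 ranked 31. The Gapdh2 summit, 158 bp upstream of this glycolytic enzyme gene, had ranks of 53, 44 and 27. The summit of ph-p, which encodes a subunit of Polycomb repressive complex 1, lay 443 bp upstream of a start of the gene, with ranks of 40, 32 and 41. These 7 summits thus stayed within the first 64 ranks in every replicate.

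**Figure D3:**
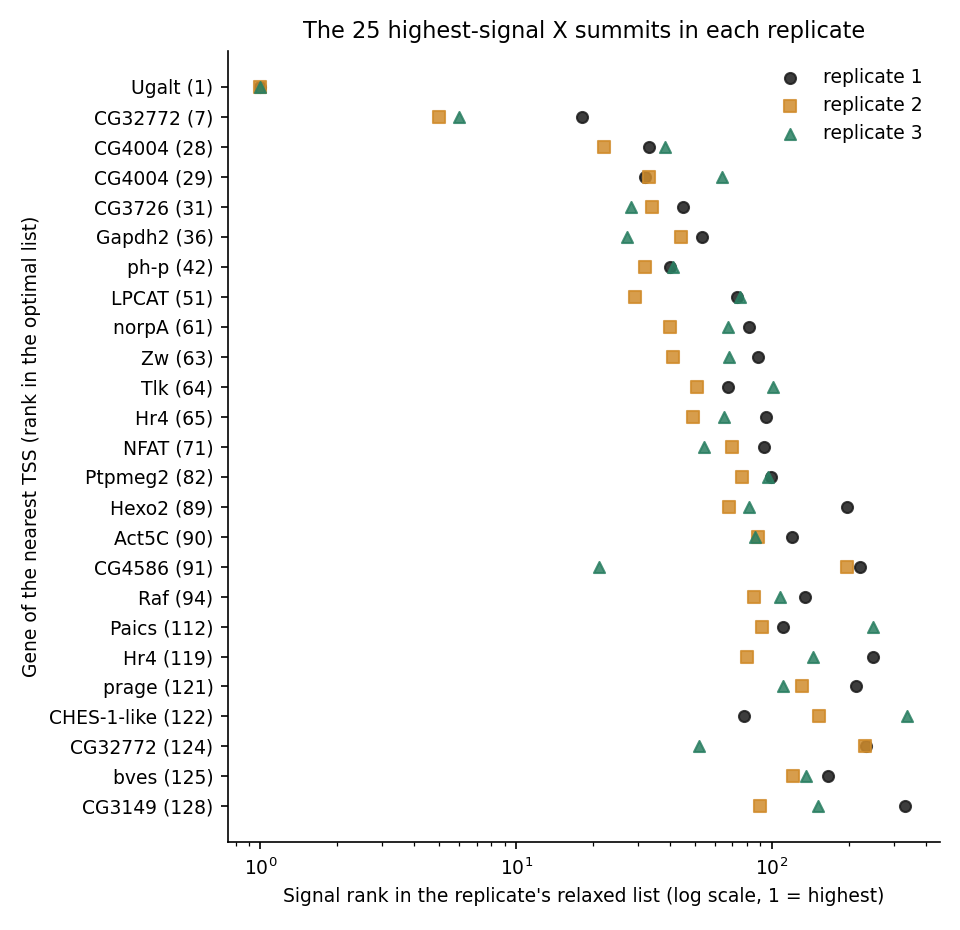
Signal rank in each replicate's relaxed list (horizontal log axis, 1 is the highest) of the 25 highest-signal X summits found in all 3 replicates, from the strongest at the top. Labels give the gene of the nearest TSS and the rank in the optimal list. Ugalt is at 1 in all 3 replicates, and CG4586 spreads from 21 to 220.

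The other summits among the 25 had the nearest TSS of LPCAT, a phospholipid acyltransferase gene, norpA, the phospholipase C gene of phototransduction, and Zw, which encodes glucose-6-phosphate dehydrogenase. Further ones were nearest to Tlk, Hr4, a nuclear receptor gene of the ecdysone response, with both summits in its introns, NFAT, the phosphatase gene Ptpmeg2, the hexosaminidase gene Hexo2 and Act5C, a cytoplasmic actin gene. The last were nearest to CG4586, Raf, Paics, a purine synthesis gene, prage, the forkhead gene CHES-1-like, CG32772 again, bves and CG3149. The Act5C summit lay 4683 bp upstream, between genes, with ranks of 120, 88 and 86. The CG4586 summit differed most between replicates of this set by ratio, at 220, 196 and 21. Of the 25, 10 were within 1 kb of a TSS, against 18, 14 and 17 of the 25 strongest on 2L, 3L and 3R, and 6 were within 250 bp, against 10, 14 and 11. No test was made on these counts. All 18 X summits among the 100 strongest optimal peaks were found in all 3 replicates.

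Support by replicates on X lay near that of the arms. An optimal summit counted as found in a replicate when it lay inside one of that replicate's strong peaks. Of the X summits 591 (57.3%, 54.2% to 60.3%) were found in all 3, against 56.5%, 55.0% and 55.3% on 2L, 3L and 3R and 55.9% of all optimal summits. Since the authors built the optimal list from these same libraries, the shares only describe it. Replicates 1, 2 and 3 held 83.5%, 86.8% and 72.2% of the X summits, which differed from the mean of the arms by -1.504, 4.31 and -1.04 points (exact sign-flip permutation test, p = 1, n = 3). The replicates did not share a direction. A further 298 X summits were found in 2 replicates, 134 in 1 and 9 in none. The 9 lay at optimal ranks from 5028 to 5617, the lower end of the list.

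Replicates 1 and 3 leaned in opposite directions by the place of the summits they held, and replicate 2 held near and far summits alike. Of X summits within 1 kb of a TSS, replicates 1, 2 and 3 found 76.7%, 87.0% and 78.1%, and of those beyond 1 kb they found 88.3%, 86.7% and 68.1%. The 187 X summits found in replicates 1 and 2 only were within 1 kb of a TSS in 29.9% of cases, against 63.5% of the 74 found in 2 and 3 only. The same order was seen on 2L, 3L and 3R, at 35.9%, 23.5% and 32.6% for replicates 1 and 2 only and 51.3%, 66.7% and 59.4% for 2 and 3 only. Summits found in replicates 1 and 3 only were 3.59% of the X summits, against 6.42%, 6.91% and 6.18%.

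On average the bases at X summits had a layered arrangement, with an A/T-rich centre and GAGAG at its flanks. Summits of 2L, 3L and 3R had such an arrangement too. In the replicates' strong peaks the G and C content within 50 bp of an X summit was 36.5% ± 2.85 and reached 44.4% ± 0.579 at 151 to 200 bp (SD, n = 3). Over the whole X chromosome it was 42.3%. Summits of 2L, 3L and 3R had 36.6%, 35.6% and 37.0% within 50 bp and 44.2%, 43.9% and 44.0% at 151 to 200 bp. GAGAG, counted at every start on both strands, occurred 2.77 ± 1.41 times per kb within 50 bp of an X summit. It stood at 5.68 ± 0.951 per kb at 101 to 150 bp and 5.06 ± 0.696 at 151 to 200 bp, and at 3.20 ± 0.340 at 401 to 500 bp, against 1.71 per kb of the whole X. At 101 to 150 bp replicates 1, 2 and 3 had 5.18, 5.08 and 6.77 per kb on X, against means of 3.45, 3.55 and 4.50 over 2L, 3L and 3R. X was higher by 1.85 ± 0.382 per kb (SD, n = 3, exact sign-flip permutation test, p = 0.25). Within 50 bp the difference was 0.158 ± 0.458 per kb, and its sign varied between replicates.

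**Figure D4:**
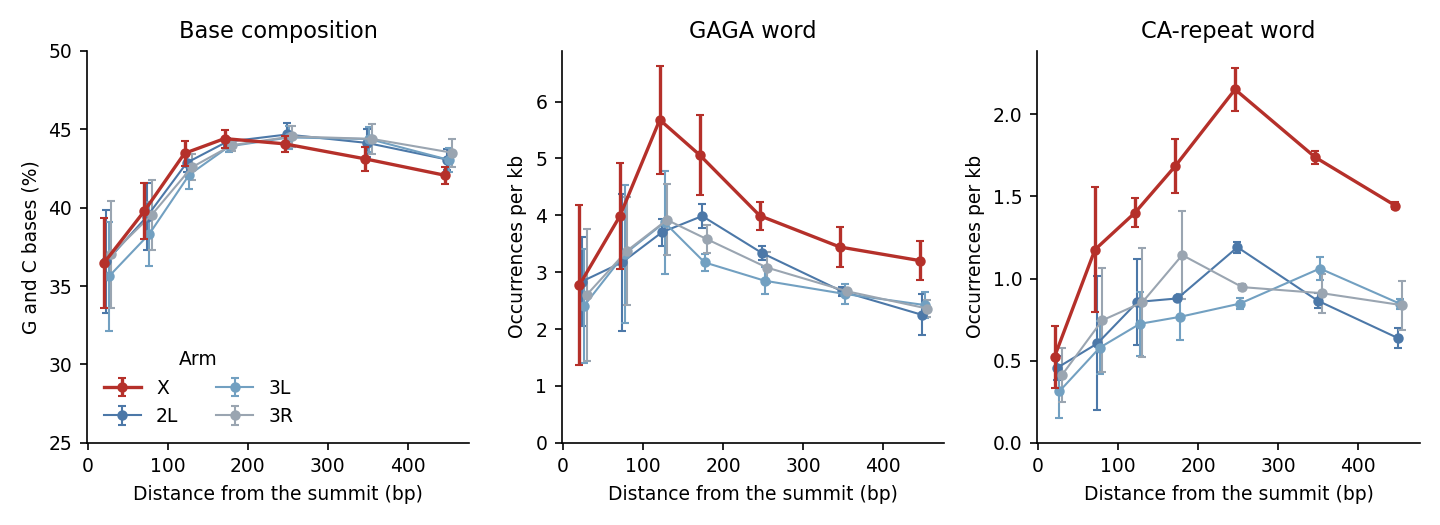
Base composition and words by distance from the summit (horizontal axes, bp, both sides together) in the strong peaks, as mean and SD of 3 replicates, for X and then 2L, 3L and 3R. Left, percentage of G and C bases. Middle, occurrences per kb of the GAGA word of 5 bases. Right, occurrences per kb of the repeat of C and A of 8 bases. The X curve peaks at 5.68 per kb for the GAGA word and at 2.15 per kb for the repeat, above the arms. Over whole arms the repeat occurs 0.993 times per kb on X, against 0.497, 0.438 and 0.527 on 2L, 3L and 3R. Base composition runs close together on all 4.

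The flanking GAGAG was denser at the stronger X summits of the optimal list. At 101 to 150 bp the 529 X summits among the 2811 strongest optimal peaks had 7.54 per kb, and the other 503 had 3.20 per kb. Within 50 bp they had 1.95 and 2.38 per kb. At 51 to 100 and 401 to 500 bp the weaker 503 had 3.84 and 3.25 per kb, so 101 to 150 bp was not their densest class. On 2L, 3L and 3R the stronger summits had 4.41, 4.52 and 4.63 per kb at 101 to 150 bp and the weaker ones 2.92, 3.52 and 4.17. Of the 25 strongest X summits 18 had GAGAG within 250 bp, 9 within 100 bp and 2 within 75 bp. Of the 25 strongest on 2L, 3L and 3R, 17, 14 and 15 had it within 250 bp. Among all X summits 61.0% had it within 250 bp, so the count of 18 lay near these. The CG3726 sequence printed above holds 13 starts of GAGAG, all 85 to 134 bp from the summit and on both sides of it. The bi sequence, inside this T-box gene and 154 bp upstream of one of its starts, holds 11 within 75 bp. Both arrangements thus occur among the summits found in all 3 replicates. The distance classes and this split were chosen after the values were seen, and runs of GA count once for every start.

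Counted in windows of 250 bp each side, X summits held repeats of CA and GA more often than those of 2L, 3L and 3R. CACACACA, whose complement contains GTGTGT, was in 21.1% of X windows, against 15.99%, 11.7% and 15.5% on 2L, 3L and 3R. On 2R, which was not among the compared arms, it was in 18.4%. The replicate differences from the mean of the arms were 7.17, 6.47 and 7.12 points (mean 6.92 ± 0.389, SD, n = 3, exact sign-flip permutation test, p = 0.25). The X chromosome as a whole is rich in this repeat. CACACACA was in 13.0% of windows of the same length tiled along X, against 9.05%, 8.28% and 9.28%, and in 14.9% of windows centred on X TSSs, against 9.52%, 8.73% and 9.81%. The ratio of the summit share to the tiled share was 1.63 on X, against 1.77, 1.42 and 1.67, so relative to the arm X lay within the range of the others. With windows of 100 bp each side the difference in the optimal list was 1.04 points, against 6.71 with 250 bp. This word was singled out after its values were seen.

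GAGAGAGA, which contains GAGAG and is the core of the GA-rich MSL entry element, was in 13.4% of X windows, against 9.67%, 9.08% and 10.2%. Tiled windows held it in 3.76% of cases on X, against 2.51%, 2.68% and 2.57%. The ratio to the tiled share was 3.55 on X, against 3.85, 3.39 and 3.97. GAGAG was in 61.0% of X windows, against 59.9%, 58.8% and 57.4%. On 2R, which was not among the compared arms, it was in 60.7%. In replicate 2 the share was 59.5% on X and 59.8% on 2R. Tiled windows held GAGAG in 44.5% of cases on X, against 44.3%, 45.1% and 44.6%. Replicate differences from the mean of the arms were 3.30, 2.63 and 4.39 points. With windows of 100 bp each side the difference in the optimal list was -0.0947 points. GCCAT was in 56.7% of X windows, against 61.7%, 60.05% and 59.7%, and the replicate differences were -2.43, -3.54 and -3.63 points. In the optimal list the difference of -3.79 points was -1.22 for summits within 1 kb of a TSS and -1.68 with 100 bp each side. Tiled windows held GCCAT more often than summit windows on all 4 arms, with 66.1% on X, against 66.2%, 64.7% and 66.3%. A match is a run of letters and not a bound site.

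Of the 2196 protein-coding genes of X, 375 (17.1%, 15.5% to 18.7%) had a summit within 1 kb of a TSS, against 15.1%, 16.9% and 16.7% on 2L, 3L and 3R and 16.1% of the genes of all 6 arms. In the strong peaks of replicates 1, 2 and 3 the X share was 15.4%, 19.2% and 20.2%, and it was above the mean of the arms in replicates 2 and 3 and below it in replicate 1. X genes were then described by 10 lists chosen by function. The order of the lists is plotted beside the share of all X genes.

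**Figure D5:**
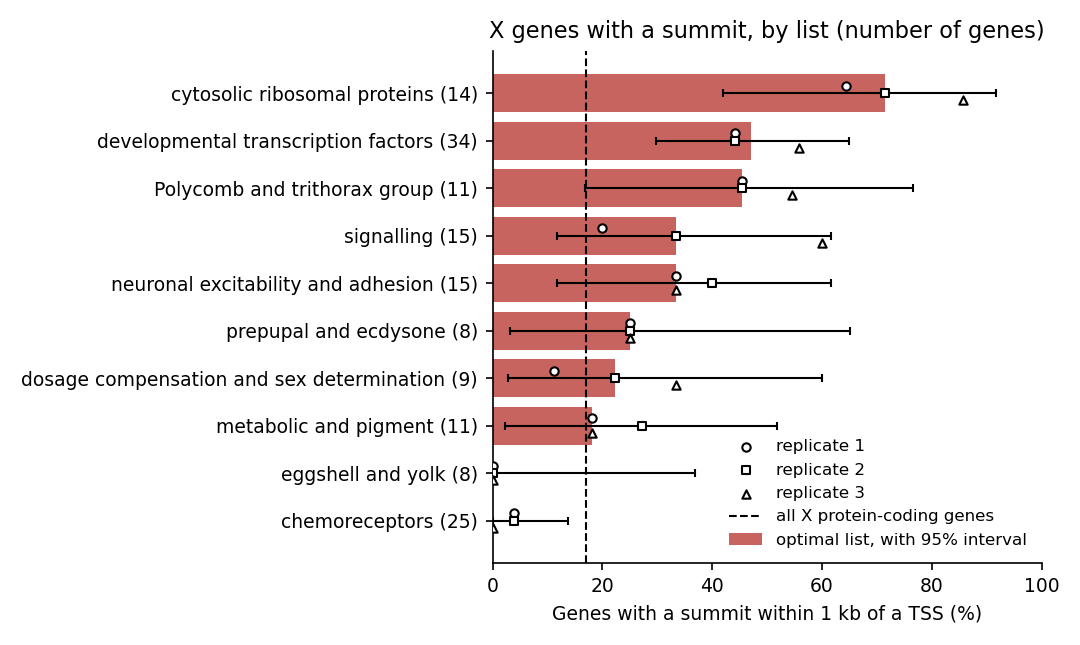
Percentage of the X genes of each list with a summit within 1 kb of a TSS (horizontal axis), with the number of genes in brackets. Bars are the optimal list with exact 95% binomial intervals, open symbols are the strong peaks of the 3 replicates, and the dashed line is the share of all X protein-coding genes. Cytosolic ribosomal protein genes are highest at 71.4%, and eggshell and chemoreceptor genes have none.

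Of 34 developmental transcription factor genes on X, 16 (47.1%, 29.8% to 64.9%) had a summit, with 44.1%, 44.1% and 55.9% in replicates 1, 2 and 3. The highest was at the homeobox gene unc-4, at optimal rank 376 and best ranks of 508, 821 and 106. Those at oc, the head homeobox gene orthodenticle, ranked 1113, 726 and 247, at Lim1, a LIM homeobox gene, 1418, 915 and 200, and at bi 648, 1821 and 500. In all 4 of these replicate 3 gave the best rank. It did so in 10 of the 16, replicate 2 in the other 6 and replicate 1 in none. Replicate 3 was also best in 6 of 10 cytosolic ribosomal protein genes, 3 of 5 signalling genes and 3 of 5 neuronal genes. It was best in 0 of 5 Polycomb and trithorax group genes and 0 of 2 prepupal and ecdysone genes. In the dosage compensation and the metabolic lists it was best in 1 of 2. Over all 424 X summits within 1 kb of a TSS replicate 3 gave the best rank in 31.4%. That share counts summits, while the counts of the lists take the strongest peak of each gene. The proneural gene ac, which lies inside the body of CG32816, and the POU gene acj6 had no optimal summit within 1 kb.

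Of 11 Polycomb and trithorax group genes and partners, 5 (45.5%, 16.7% to 76.6%) had a summit. This interval holds the 17.1% of all X genes. After ph-p came Dsp1, a high mobility group protein gene, with best ranks of 481, 355 and 794, then nej, the acetyltransferase CBP gene, with 653, 1292 and 769, and fs(1)h, a bromodomain protein gene, with 3255, 1747 and 3250. The remaining member, named after its values were seen, was ph-d, the neighbouring near-identical copy of ph-p, with 734, 1673 and 2313, and reads may be shared between the pair. Bap60, a Brahma complex subunit gene, and crm had none.

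Of 9 dosage compensation and sex determination genes, 2 (22.2%, 2.81% to 60.01%) had a summit. This interval holds the 17.1% of all X protein-coding genes. Sxl, the switch gene of sex determination, had best ranks of 2241, 1436 and 3687, and upd1, a ligand of the JAK/STAT pathway and an X-linked sex signal, had 8661, 3147 and 1206. The roX1 and roX2 RNA genes, whose loci are entry sites of the MSL complex, were without a peak within 1 kb in replicates 1 and 2, relaxed lists included, and one at rank 14910 and 13237 in replicate 3. The MSL acetyltransferase gene mof had none in any relaxed list. The sex signal genes sisA, sc and run and the splicing factor gene snf had no optimal summit within 1 kb. At sc, which is also among the transcription factors, the best rank was 28807 in replicate 1 and 5299 in replicate 3, with none in replicate 2.

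Signalling genes had summits at 5 of 15 (33.3%, 11.8% to 61.6%), an interval that holds the 17.1% of all X genes. The highest was at sgg, the GSK3 kinase gene of Wnt signalling, with best ranks of 196, 117 and 205, then Raf with 806, 401 and 1399 and csw, a phosphatase gene of receptor tyrosine kinase signalling, with 4873, 2855 and 1122, followed by upd1. The beta-catenin gene arm and the cytokine receptor gene dome had no optimal summit within 1 kb. In replicate 3, however, arm had a strong peak, at rank 4282. The number depended on the replicate, at 3, 5 and 9 of 15 in the strong peaks of replicates 1, 2 and 3. Neuronal genes had 5 of 15, with the same share and interval. Among them were elav, the pan-neuronal RNA-binding protein gene, with 262, 328 and 240, and dnc, the cyclic AMP phosphodiesterase gene of learning, with 289, 308 and 297. The adhesion gene Fas2 had 4625, 2671 and 1083, and norpA had 2196, 2206 and 4521. The norpA value is for a promoter summit and not the stronger intronic one. Appl, the amyloid precursor homologue, and the calcium channel gene cac had none.

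Cytosolic ribosomal protein genes had the highest share, 10 of 14 (71.4%, 41.9% to 91.6%), with 64.3%, 71.4% and 85.7% in the replicates. The strongest were at RpS10b with best ranks of 860, 668 and 509 and RpS28b with 815, 667 and 637. Next came RpS5a with 1473, 1128 and 1301 and RpS19a with 2480, 1168 and 3212. RpL35 and RpL36 had no optimal summit within 1 kb, but a strong peak in replicate 3, at ranks 5376 and 3464. The neighbouring RpS14a and RpS14b are near-identical, and the peaks there may share reads. Metabolic and pigment genes had 2 of 11 (18.2%, 2.28% to 51.8%), Ugalt and Gapdh2, and no optimal summit at Ant2 and Pgd. Pgd had a strong peak in replicate 2 only, at rank 5246. Zw, with its summit 1115 bp away, is not counted. The prepupal and ecdysone genes had 2 of 8 (25%, 3.19% to 65.1%). These were the early gene br with 3600, 1820 and 2976 and the ecdysone receptor partner usp with 4786, 2440 and 5525. Hr4 is not counted, since its summits are intronic, and the glue gene ng1 had none.

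No optimal summit lay within 1 kb of the chemoreceptor or the eggshell and yolk genes of X. None of 25 chemoreceptor genes, such as Gr10a and Gr10b, had one. This allows a share of up to 12% by 3 counts of the total and up to 13.7% by the exact interval. The 17.1% of all X genes lies above both, but these bounds treat the genes as independent. Or10a and Gr10a have the same coordinates, and Ir7b to Ir7g are neighbours, so the bounds may be too low. Replicates 1, 2 and 3 had 1, 1 and 0 among their strong peaks. None of 8 eggshell and yolk genes, such as the chorion genes Cp36 and Cp38, had one in the optimal list or in any replicate's strong peaks, which allows up to 37.5% by 3 counts and 36.9% by the exact interval, so that the 17.1% of all X genes lies within it. The lists are small, a gene can be in 2 of them, and no list was tested.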

How the data were processed

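E(z)-GFP chromatin immunoprecipitation was analysed from the peak lists of 3 biological replicates of whole prepupae, 1 group per the labels, which do not say how the replicates were reared. The authors deposited relaxed lists of 30000 peaks per replicate and pooled, and an optimal list, on dm6 and dm3. Each peak has a signal value from the authors, used only as a rank within its list, a -log10 q-value deposited by the authors, from 2.87 to 3.97 on X and only described, and a deposited summit offset. Neither peak caller nor aligner is given in the sources used here. All 5623 optimal peaks were the highest-ranked of the pooled list. Of the X peaks 6 share an interval with another and differ in summit. Depth is unknown, so no precision was derived from it.

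Coordinates are 1-based dm6. Genes came from Ensembl release 115 (BDGP6.54) and sequence from RefSeq genome release 6. Of the listed genes, 3 were matched by a synonym, phm had no match and is not reported. The members, gene lists, words and tests were chosen with earlier results of these data known. Named genes were those of the 25 strongest X summits found in all 3 replicates, up to 4 members of each list with the strongest summits and 2 without in alphabetical order, all dosage compensation genes, the genes of the densest 100 kb and the 5 summits farthest from a TSS. The best rank of a gene is that of the strongest peak of a replicate's relaxed list within 1 kb of its TSSs. A gene's optimal summit need not lie inside that peak. Those of elav, Fas2, ph-d and RpS28b lay inside strong peaks of 2 replicates only. Shares have exact binomial intervals, and X was compared with 2L, 3L and 3R by a two-sided exact sign-flip permutation test over 3 replicates, with Benjamini-Hochberg adjustment over 45 differences. The scripts were tested on simulated data. Python 3.11.15, numpy 2.4.6, pandas 2.3.3 and scipy 1.17.1 were used. Alternatives were other distances, windows, list lengths, overlap rules, the higher-signal 2811 peaks, dm3 and each replicate left out, that is only optimal peaks found in both others. Those for CACACACA, GCCAT, introns and intergenic sequence were chosen after seeing the data.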

Additional observations from a re-analysis of the deposited data

How the results depend on the processing

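The X share of summits, 18.4%, was 17.1% in the relaxed pooled list of 30000 peaks, 22.3% over X, 2L, 3L and 3R only and 18.1% to 19.1% without 1 replicate. All differences below are X minus the mean of 2L, 3L and 3R. The promoter difference, 1.5 points, was -3.31 within 250 bp, -0.582 within 500 bp, 5.74 within 5 kb, -0.894 with the TSSs of all annotated genes, -0.429 among the 2811 strongest peaks and 0.285 to 1.15 without 1 replicate. The median percentile difference, 1.12, was -1.04 with mean replicate ranks and 0.0978 to 1.64 without 1 replicate. The difference in support, 1.69 points, ran from -1.23 to 2.86 without 1 replicate, and that in genes with a summit, 0.845 points, from 0.265 to 1.47. The genes difference changed sign in 3 of 8 alternatives and stayed within the replicate SD. The GAGAG difference, 2.33 points, was -0.0947 with 100 bp each side, 4.47 among the 2811 strongest peaks and 3.31 to 4.24 without 1 replicate. For CACACACA, 6.71 points, it was 1.04 with 100 bp, 4.96 for promoter summits, 7.82 for summits over 1 kb from a TSS, 8.21 among the 2811 strongest peaks and 7.64 to 9.14 without 1 replicate. For GCCAT, -3.79 points, it was -1.68, -1.22, -5.40 and -4.75 in the same order and -3.38 to -2.84 without 1 replicate. The intron difference, 9.85 points, was 6.92 after taking off the share of bases and 9.11 to 10.9 without 1 replicate. The intergenic difference, -12.0 points, was -9.04 and -11.9 to -11.5 likewise. The cause of these changes was not tested. The exact sign-flip permutation test over 3 replicates cannot give a p below 0.25.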
